A study of Mus musculus with 4 samples.

Results

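The genes of GABA synthesis, breakdown and transport were followed in Beta-TC-6, a mouse line of pancreatic beta cells, after depletion of NF45. NF45 is a protein encoded by Ilf2 that works with its partner NF90 on double-stranded RNA. The 7 genes were Gad1, Gad2, Abat, Aldh5a1, Slc32a1, Slc6a6 and Slc6a13, out of 22180 genes with a probe set of their own on the array. They were chosen by the measured fall of Gad2 between siNF45 and siNTC on these same 4 arrays, as the islet GABA system around it, so the differences of the 7 genes between the groups are given as a description, and no test of them is used in support. For each gene the brightest probe set named for that gene alone was used.

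All 4 samples were Beta-TC-6 cells, a line from an insulin-producing tumour of transgenic mice, grown with 25 mM glucose and 15% serum and transfected with RNA duplexes by a lipid reagent. In 2 samples (siNTC) the duplex was a negative control, and in 2 samples (siNF45) a mixture of 3 duplexes was directed at NF45. Each sample was hybridised to 1 Affymetrix array (Mouse Gene 2.1 ST), and each value below is on the log2 scale of the deposited table. The time after transfection is not given in the sources used here, and nothing says whether the 2 samples of a group were separate cultures, so the p-values rest on a spread between samples that may be technical only.

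GABA is made from glutamate by 2 glutamate decarboxylases that use a vitamin B6 cofactor. Gad1 encodes GAD67, a soluble enzyme, and Gad2 encodes GAD65, which is anchored to membranes by palmitoylation and is a major autoantigen of type 1 diabetes. GABA transaminase (Abat) and succinic semialdehyde dehydrogenase (Aldh5a1) then pass its carbon to succinate in mitochondria, a route called the GABA shunt. Slc32a1 loads GABA into vesicles, Slc6a13 takes it up at the plasma membrane, and the taurine transporter Slc6a6 can also carry it. Beta cells hold much GABA and release it within the islet.

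The promoters of 3 of the genes are shown. Gad2 and Aldh5a1 had lower values in siNF45 and passed the signal filter described below. Gad1 is the other decarboxylase gene, whose signal was dim in both groups. The sequences run from 250 bases before to 50 bases after the start of the gene, are from RefSeq on the build GRCm38.p6, and are written 5′ to 3′ on the strand of the gene. Capitals mark matches on either strand to any of 5 motifs, the TATA box TATAAA, the CCAAT box CCAAT, the GC box GGGCGG, the E-box CANNTG and TGACG, the half-site of the cAMP response element. The Gad2 window is chr2:22622077-22622376 on the plus strand, that of Gad1 is chr2:70561879-70562178 on the plus strand and that of Aldh5a1 is chr13:24937612-24937911 on the minus strand.
Gad2: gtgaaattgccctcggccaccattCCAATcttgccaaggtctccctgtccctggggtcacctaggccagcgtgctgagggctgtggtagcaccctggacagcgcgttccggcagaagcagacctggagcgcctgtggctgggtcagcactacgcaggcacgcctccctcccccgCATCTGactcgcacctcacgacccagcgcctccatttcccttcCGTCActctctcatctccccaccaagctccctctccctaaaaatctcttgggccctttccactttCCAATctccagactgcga
Gad1: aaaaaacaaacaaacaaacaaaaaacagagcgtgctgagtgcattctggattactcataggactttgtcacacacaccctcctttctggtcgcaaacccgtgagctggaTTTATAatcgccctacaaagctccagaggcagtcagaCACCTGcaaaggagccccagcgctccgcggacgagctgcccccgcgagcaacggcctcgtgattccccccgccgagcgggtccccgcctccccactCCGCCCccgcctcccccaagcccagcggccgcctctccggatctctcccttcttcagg
Aldh5a1: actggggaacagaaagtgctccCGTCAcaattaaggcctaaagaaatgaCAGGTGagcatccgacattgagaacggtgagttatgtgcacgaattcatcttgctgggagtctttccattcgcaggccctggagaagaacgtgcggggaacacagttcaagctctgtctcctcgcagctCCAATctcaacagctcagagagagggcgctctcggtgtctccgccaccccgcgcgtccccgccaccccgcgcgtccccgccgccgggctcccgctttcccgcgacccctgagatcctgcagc

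The Gad2 window held 2 CCAAT boxes, 1 E-box and 1 TGACG, and no match to TATAAA or GGGCGG. The Aldh5a1 window held the same 3 motifs, with 1 CCAAT box, 1 E-box and 1 TGACG. The Gad1 window held 1 TATA box, 1 GC box and 1 E-box, and no match to CCAAT or TGACG. Among all 32851 promoter windows of the same length, 13.6% held TATAAA, 37.4% CCAAT, 35.7% GGGCGG, 72.3% CANNTG and 20.8% TGACG. GC content was 61.3% for Gad2, 60% for Gad1 and 60.3% for Aldh5a1, with a median of 52.7% over all windows. These are matches of letters, not sites of binding. RefSeq windows were matched for 5 of the 7 genes, these 3 and Slc32a1 and Slc6a13.

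The knockdown was read first in its target. The siNTC arrays gave 5.79 and 5.98 for Ilf2 and the siNF45 arrays gave 3.67 and 3.77, a difference of -2.17 (SE 0.13, limma adjusted p = 0.020; exact permutation p = 0.333, the smallest that 2 arrays against 2 can give). Its limma adjusted p was 0.258 with the replicate number as a block and 0.307 to 0.471 without any 1 of the 4 arrays, where the difference ran from -2.26 to -2.07. The 4 arrays had medians of 1.64 to 1.66 over all probe sets, and a typical tested gene differed by 0.15 between the 2 arrays of a group. Of 8 beta cell markers, 7 had a probe set here and all 7 passed the signal filter, from Slc2a2 at 5.18 to Iapp at 10.14 as siNTC means. A probe set passed that filter when its mean over the 4 arrays reached 1.65, the median of all probe sets, which left 11742 tested genes. Differences are siNF45 minus siNTC.

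Of the 7 GABA genes, 4 passed the filter (Gad2, Abat, Aldh5a1 and Slc6a6) and 3 did not (Gad1, Slc32a1 and Slc6a13). No detection calls were used here, so a dim value says only that the probe set lay among the dimmer ones. The dim genes were the second decarboxylase, the vesicular loader and the plasma membrane GABA transporter.

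**Figure D1:**
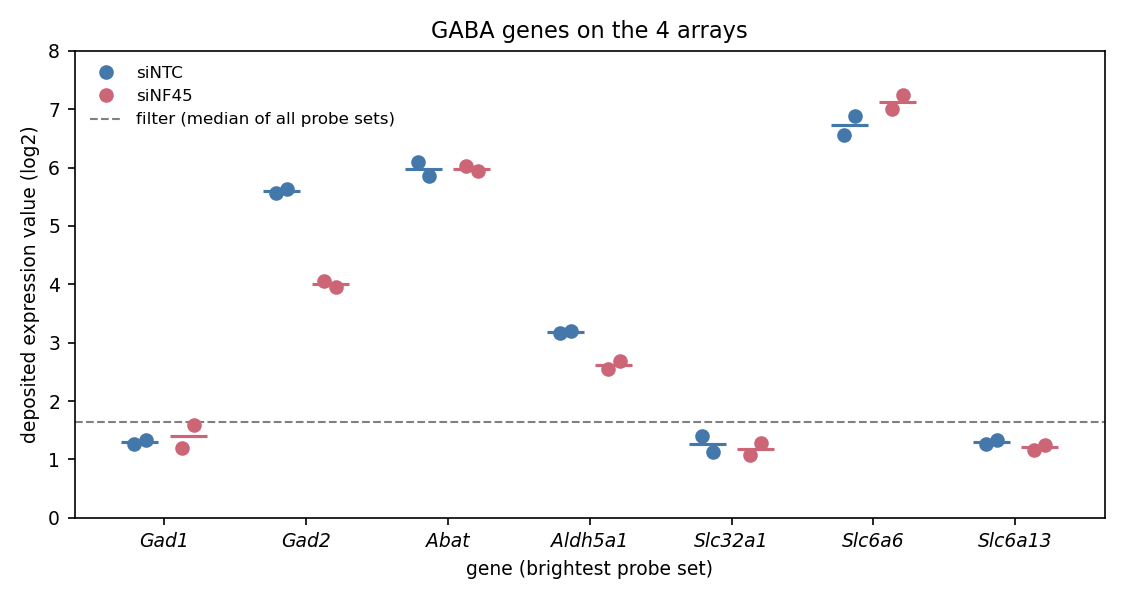
Deposited expression values (log2, vertical axis) of the 7 GABA genes on the 4 arrays, with siNTC in blue and siNF45 in red, 1 point per array, short lines for group means (n = 2) and a dashed line at the filter of 1.65. Gad2 stands near 5.6 in siNTC and near 4 in siNF45, Abat is level, and Gad1, Slc32a1 and Slc6a13 lie under the dashed line in both groups.

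Among the enzymes of synthesis, Gad2 read 5.57 and 5.63 in the siNTC samples and 4.05 and 3.95 in the siNF45 samples. Both siNF45 values lay far below both siNTC values, and the 2 arrays of a group were closer to each other than for a typical gene (0.06 in siNTC and 0.10 in siNF45). The group means were 5.6 ± 0.04 and 4 ± 0.07 (SD, n = 2), a difference of -1.60 (SE 0.12) or 3.03-fold, and the 4 differences between single arrays ran from -1.68 to -1.52. This was the 9th lowest of the 11742 differences. In the limma fit over all tested genes 0.0852% passed an adjusted p of 0.05, 0.00852% higher and 0.0766% lower in siNF45. Gad2 was among the lower ones, but the set was built around that difference, so nothing is read from its call. Without 1 array the Gad2 difference ran from -1.65 to -1.55.

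Gad1, the gene of the soluble decarboxylase, read 1.26 and 1.34 in siNTC and 1.20 and 1.59 in siNF45. The groups overlapped and all 4 values lay below the filter. Its difference of 0.095 came with single-array differences from -0.14 to 0.33 and turned to -0.10 without siNF45 replicate 2.

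In the breakdown of GABA the 2 enzymes of the shunt gave unlike values. Abat, the transaminase that takes the first step, read 6.10 and 5.86 in siNTC and 6.02 and 5.94 in siNF45. The siNF45 values lay between the siNTC values and the group means were both 5.98 (SD 0.17 in siNTC and 0.06 in siNF45, n = 2). The difference was 0 (SE 0.14), with single-array differences from -0.16 to 0.16, and its sign turned either way with single arrays left out (-0.12 to 0.12). A further probe set of Abat was dim, at 1.31 and 1.27 in siNTC and 1.54 and 1.39 in siNF45.

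Aldh5a1, which oxidises succinic semialdehyde to succinate in the last step, read 3.16 and 3.20 in siNTC and 2.55 and 2.68 in siNF45. The groups did not overlap. The means were 3.18 ± 0.03 and 2.62 ± 0.09 (SD, n = 2), a difference of -0.565 (SE 0.12) or 1.48-fold, with single-array differences from -0.65 to -0.48. Of the tested genes, 5.31% had a difference at least as low. Without 1 array it ran from -0.63 to -0.50, and it was -0.435 after each array was centred on the median of its tested genes.

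Among the transporters, Slc6a6 was the member with higher values in siNF45. The taurine transporter read 6.55 and 6.89 in siNTC and 7.01 and 7.24 in siNF45, so the groups did not overlap but lay close, with 0.12 between the nearest arrays. The means were 6.72 ± 0.24 and 7.13 ± 0.16 (SD, n = 2), a difference of 0.405 (SE 0.17) or 1.32-fold, and 3.39% of the tested genes had a difference at least as high. The replicate gap of 0.34 in siNTC was over the 0.15 of a typical gene, and the difference was 0.235 without siNTC replicate 1 and 0.575 without siNTC replicate 2.

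Slc32a1, the vesicular transporter that marks GABAergic neurons, read 1.40 and 1.12 in siNTC and 1.07 and 1.28 in siNF45. These values overlapped, and its other probe set was dim too, with 0.78 and 1.30 in siNTC and 1.06 and 1.08 in siNF45. Slc6a13, the plasma membrane transporter GAT2, read 1.27 and 1.34 in siNTC and 1.16 and 1.25 in siNF45, a difference of -0.10 between values that all lay below the filter. Both differences changed sign when arrays were centred, to 0.045 for Slc32a1 and 0.03 for Slc6a13. Slc6a13 thus counts as non-overlapping by 0.02 only.

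Of the 4 GABA genes that passed the filter, 3 had groups that did not overlap, which held for 47.8% of all tested genes. Lower in this sense were Gad2 and Aldh5a1, as 32.6% of all tested genes, and higher was Slc6a6, as 15.2%. In the plot of ranked differences, Gad2 stands at the far low end, Aldh5a1 on the lower shoulder, Abat in the flat middle and Slc6a6 near the high end.

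**Figure D2:**
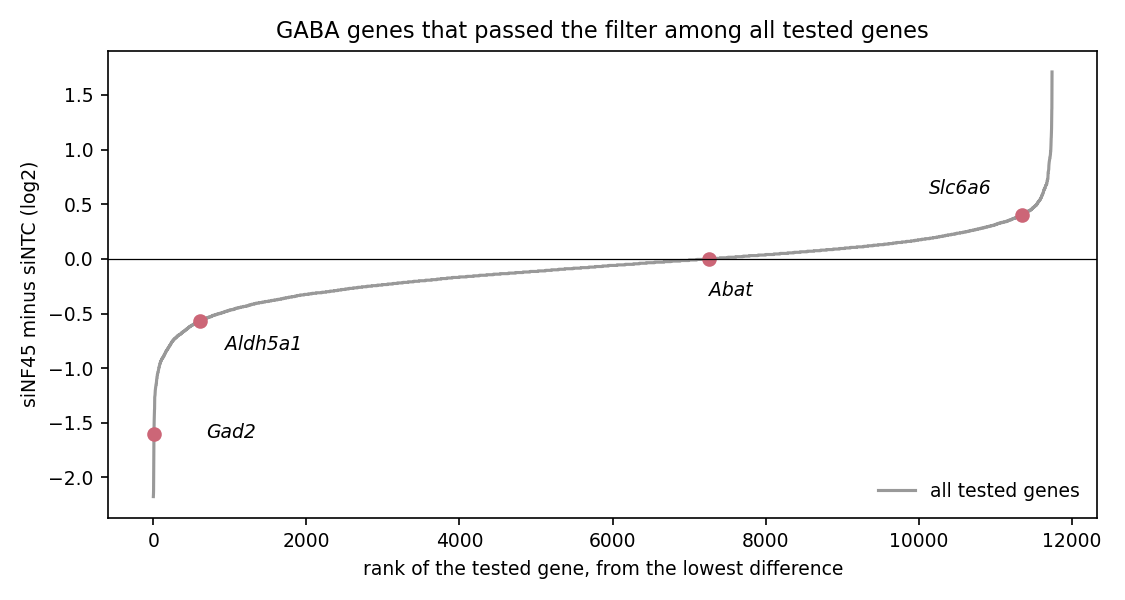
Differences siNF45 minus siNTC (log2, vertical axis) of the 11742 tested genes in order from the lowest (grey line, rank on the horizontal axis), with the 4 GABA genes that passed the filter as red points. Gad2 is the 9th lowest at -1.60, Aldh5a1 lies at -0.565, Abat at 0 and Slc6a6 at 0.405.

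Fewer cells of a type and less RNA per cell cannot be told apart in such bulk samples, so markers of other cells were set beside Gad2. The 4 delta and PP cell markers summed, on the linear scale, to 466 to 594 in siNTC and to 279 to 303 in siNF45. This sum was made up mostly by somatostatin (Sst), at 9.19 and 8.83 in siNTC and 8.18 and 8.07 in siNF45. Pancreatic polypeptide (Ppy), the other marker that passed the filter, went the other way, at 2.18 and 2.54 against 3.13 and 2.62. Hhex and Pyy lay below the filter. All samples were of 1 beta cell line, and whether it held delta or PP cells is not shown by these transcripts. Any part of such cells in the Gad2 result was not tested. Alpha cell markers (4 measured, all above the filter) summed to 1260 to 1293 in siNTC and 1228 to 1290 in siNF45, a sum made up mostly by Ttr and Gcg. The dimmer alpha cell factors Irx1, at 1.92 and 1.96 against 1.5 and 1.28, and Irx2, at 2.75 and 3.09 against 2.59 and 2.47, were lower in siNF45 without overlap, and their part in the Gad2 result was not tested. The 7 beta cell markers summed to 2198 to 2323 in siNTC and 2275 to 2294 in siNF45. The 11 markers of GABAergic neurons and glia summed to 30.0 to 32.4 and 31.0 to 32.7, with 5 of them above the filter and none of those over 2.21 on any array. Slc32a1, Dlx2 and Lhx6 of that list recur among the GABA genes or the lists below, as do Ins2, Iapp and Slc30a8 of the beta cell markers. Markers of acinar, duct, endothelial, immune and mesenchymal cells (16 measured, 4 above the filter) summed to 49.8 to 51.3 and 54.9 to 55.3, with the duct keratin Krt7 the brightest at 3.41 and 3.13 against 3.91 and 3.96.

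The genomic neighbours of the GABA genes, as RefSeq orders protein-coding genes, mostly gave small differences. On chromosome 2, Myo3a on one side of Gad2 read 1.21 and 1.14 in siNTC and 1.45 and 1.54 in siNF45, and Apbb1ip on the other side 1.44 and 1.45 against 1.53 and 1.42, all below the filter. For Aldh5a1 on chromosome 13 the neighbours were D130043K22Rik, at -0.005, and Gpld1, a phospholipase gene, at 0.075, each with groups that overlapped. For Slc6a6 on chromosome 6, Lsm3, an RNA-binding protein gene, differed by 0.185 and Grip2 by 0.125, the second below the filter. Slc6a13 lies beside its relative Slc6a12, the betaine and GABA transporter, which read 1.69 and 1.71 in siNTC and 1.20 and 1.42 in siNF45 and missed the filter, and on its other side Usp18 differed by -0.235. The neighbours of Abat were Mettl22 at 0.04 and Tmem186 at -0.425, those of Gad1 were Erich2 at -0.05 and Gorasp2 at -0.13, and those of Slc32a1 were Arhgap40 at 0.16 and Ppp1r16b at -0.185. Groups did not overlap for Myo3a, Tmem186, Arhgap40, Ppp1r16b, Lsm3, Grip2 and Slc6a12, and overlapped for the other neighbours. Over all tested genes 47.8% had groups that did not overlap. None of the tested neighbours was called by limma over all genes, where the lowest adjusted p among them was 0.299 for Tmem186.

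The genes whose pattern was nearest to that of Gad2 were sought among all tested genes, by the root mean square distance over the 4 arrays of values taken relative to the siNTC mean of each gene. With so few arrays this collects genes with a like difference. The histone gene H2bc12 was nearest (distance 0.07), reading 3.61 and 3.78 in siNTC and 2.17 and 2.16 in siNF45. The next was another histone gene, H2ac1 (0.12), at 5.03 and 5.19 against 3.72 and 3.61. Aebp1 (0.16) read 4.22 and 3.97 against 2.78 and 2.45, the neuropeptide galanin (Gal, 0.17) 4.42 and 4.64 against 2.82 and 2.60, and the endopeptidase-like Ecel1 (0.18) 3.99 and 3.81 against 2.66 and 2.34. The differences of these 5 genes ran from -1.82 for Gal to -1.40 for Ecel1. The other GABA genes that passed the filter could not be among them, given their differences of -0.565 (Aldh5a1), 0 (Abat) and 0.405 (Slc6a6).

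**Figure D3:**
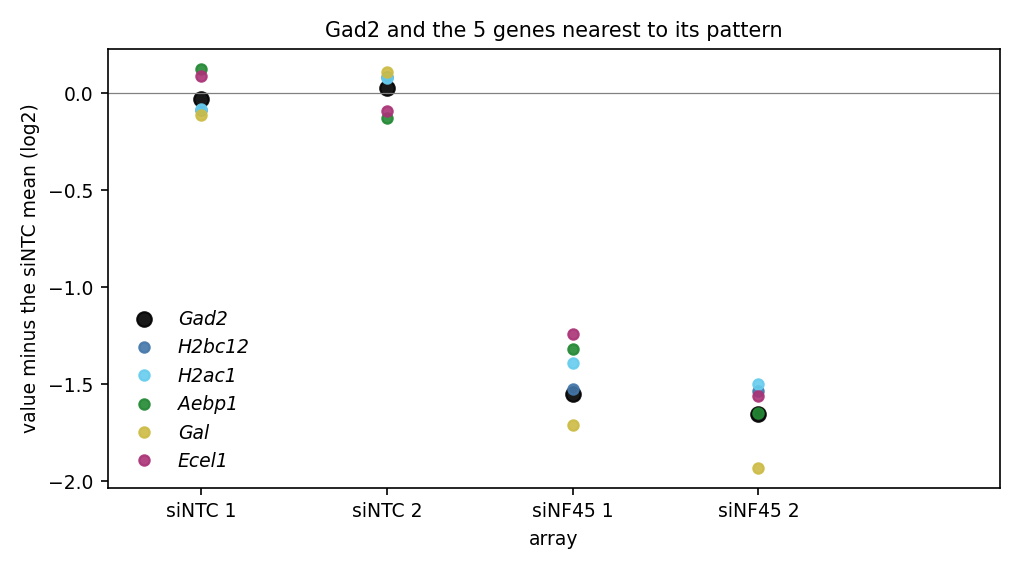
Values of Gad2 (black) and of the 5 genes nearest to its pattern on each of the 4 arrays, as log2 distance from the siNTC mean of the gene (vertical axis), 1 point per gene and array. On the siNF45 arrays Gad2 lies at 1.55 and 1.65 below its siNTC mean of 5.60, with H2bc12 closest and Gal lower.

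The wider GABA system was described with 10 lists holding 111 genes, of which 99 had a probe set here and 66 passed the filter. Of these 66 genes, 24 lay above 0 and 41 below, beside 4434 above and 7202 below among all 11742 tested genes. Their median difference was -0.0625, beside -0.065 over all tested genes. By limma 0 of the 66 were called over all tested genes, against 0.0852% in the background. An unadjusted p under 0.05 was reached by 16 (24.2%), of which 4 were higher and 12 lower, where 17.2% of all tested genes passed, 4.02% higher and 13.2% lower. The groups did not overlap for 31 of the 66 (47%), near the 47.8% of all tested genes.

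Among genes of glutamate and glutamine supply, 12 were tested and 0 passed over all genes. Of the 12, 10 lay below 0, as did 7202 of all 11742 tested genes, and the median was -0.115 beside -0.065. The neuronal glutamate and cysteine transporter Slc1a1 read 3.36 and 3.42 in siNTC and 1.98 and 2.50 in siNF45, a difference of -1.15 (SE 0.19, limma adjusted p = 0.093). The siNF45 arrays lay below both siNTC arrays but 0.52 apart from each other. The glutamine transporter Slc38a1 read 8.37 and 8.14 against 7.71 and 7.56, a difference of -0.62 (SE 0.14, limma adjusted p = 0.136). The neutral amino acid transporter Slc1a5 differed by -0.495 (SE 0.12, limma adjusted p = 0.151), and so did the alanine aminotransferase Gpt2, at 4.44 and 4.56 against 3.96 and 4.05 (SE 0.12, limma adjusted p = 0.153). The glutamine transporter Slc38a5 went the other way, at 8.68 and 8.72 in siNTC and 9.01 and 9.09 in siNF45, a difference of 0.35 (SE 0.12, limma adjusted p = 0.233). Glutamine synthetase (Glul) and glutamate dehydrogenase (Glud1), which make glutamine and release ammonium from glutamate, differed by 0.145 and -0.03, with groups that overlapped. Gpt2, Slc38a5, Glul and Glud1 were looked at after their values were seen.

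For the cofactor of the decarboxylases, 0 of 3 tested genes passed. Pyridoxal kinase (Pdxk), which phosphorylates vitamin B6, read 2.84 and 3.59 in siNTC and 2.31 and 2.60 in siNF45, a difference of -0.76 (SE 0.26, limma adjusted p = 0.242) with a wide spread in siNTC. The pyridoxal phosphatase Pdxp differed by -0.29 and the phosphate-binding protein Plpbp by 0.13, both with overlapping groups.

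Other routes to and from GABA gave no call in 7 tested genes, with a median of -0.035. The monoamine oxidase Maob, which takes part in making GABA from putrescine, read 7.82 and 7.86 in siNTC and 8.40 on both siNF45 arrays, a difference of 0.56 (SE 0.12, limma adjusted p = 0.128). Its relative Maoa went the other way, at 3.95 and 4.04 against 3.69 and 3.41, a difference of -0.445 (SE 0.14, limma adjusted p = 0.222). Aldh1a1, an aldehyde dehydrogenase that can oxidise the intermediate of this route, differed by 0.42 with overlapping groups. Of the 9 tested TCA genes beside the shunt, 0 passed and the range was narrow, from -0.23 for the succinate dehydrogenase subunit Sdha to 0.125 for Sdhc, with Ogdh, a subunit of the step that the shunt bypasses, at -0.105.

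Taurine synthesis, which supplies the substrate of Slc6a6, had 3 tested genes and 0 calls. The cysteine dioxygenase Cdo1 read 3.02 and 3.11 in siNTC and 2.69 and 2.74 in siNF45, a difference of -0.35, and the thiol dioxygenase Ado differed by -0.375. The decarboxylase Csad, a relative of the GAD enzymes, read 2.50 and 2.30 against 2.95 and 2.59, a difference of 0.37. The groups of these 3 genes, which went both ways, did not overlap, as those of 47.8% of all tested genes.

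Release and re-uptake genes other than the members had 4 tested genes, all subunits of the volume-regulated anion channel, with a median of -0.08 and 0 calls. Its obligatory subunit Lrrc8a read 3.92 and 3.44 in siNTC and 3.57 and 2.96 in siNF45 with overlapping groups, Lrrc8b differed by -0.25 and Lrrc8d by 0.265. The GABA transporter Slc6a11 was dim on all arrays (0.95 to 1.13) and was looked at after its values were seen. Among the 7 tested genes of GAD65 palmitoylation and vesicle coupling 0 passed and the median was -0.065. The palmitoyltransferase Zdhhc17, known to act on GAD65, differed by 0.10 and the chaperone Dnajc5 by -0.33. The vesicular monoamine transporter Slc18a1 read 3.27 and 2.58 in siNTC and 3.95 and 3.90 in siNF45, a difference of 1.00 (SE 0.24, limma adjusted p = 0.144), with a gap between the siNTC arrays. It was called when arrays were centred, a setting that called 172 of all 11742 tested genes.

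GABA receptors and their scaffold had 10 tested genes, 0 calls and a median of -0.0925. Gabra4, an alpha subunit of the GABA-gated chloride channel, read 4.39 and 4.56 in siNTC and 3.63 and 3.68 in siNF45, a difference of -0.82 (SE 0.13, limma adjusted p = 0.085). Gabbr1, a subunit of the metabotropic receptor, read 3.02 and 3.40 against 2.66 and 2.42, a difference of -0.67 (SE 0.18, limma adjusted p = 0.164). Its partner Gabbr2 differed by -0.17 and was looked at after its value was seen. The rho subunit Gabrr1 differed by 0.54 (SE 0.16, limma adjusted p = 0.206) near the filter. Gabra4, Maob and Slc38a1 were called by limma with a trend in the spread, a setting that called 174 of all 11742 tested genes.

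The transcription factors of GABAergic neurons were mostly dim, with 3 of 14 tested and 0 called, at -0.265 for Npas4, -0.07 for Dlx2 and 0 for Lhx6. Of the other islet autoantigens 8 were tested, 0 passed, 5 lay above 0 and the range was -0.33 to 0.225. The granule phosphatase-like protein Ptprn (IA-2) read 9.31 and 9.11 in siNTC and 8.89 and 8.87 in siNF45, a difference of -0.33 (SE 0.13, limma adjusted p = 0.279). Its relative Ptprn2 read 7.42 and 7.28 against 7.56 and 7.59, a difference of 0.225, and Ins2 differed by 0.175 with overlapping groups.

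**Figure D4:**
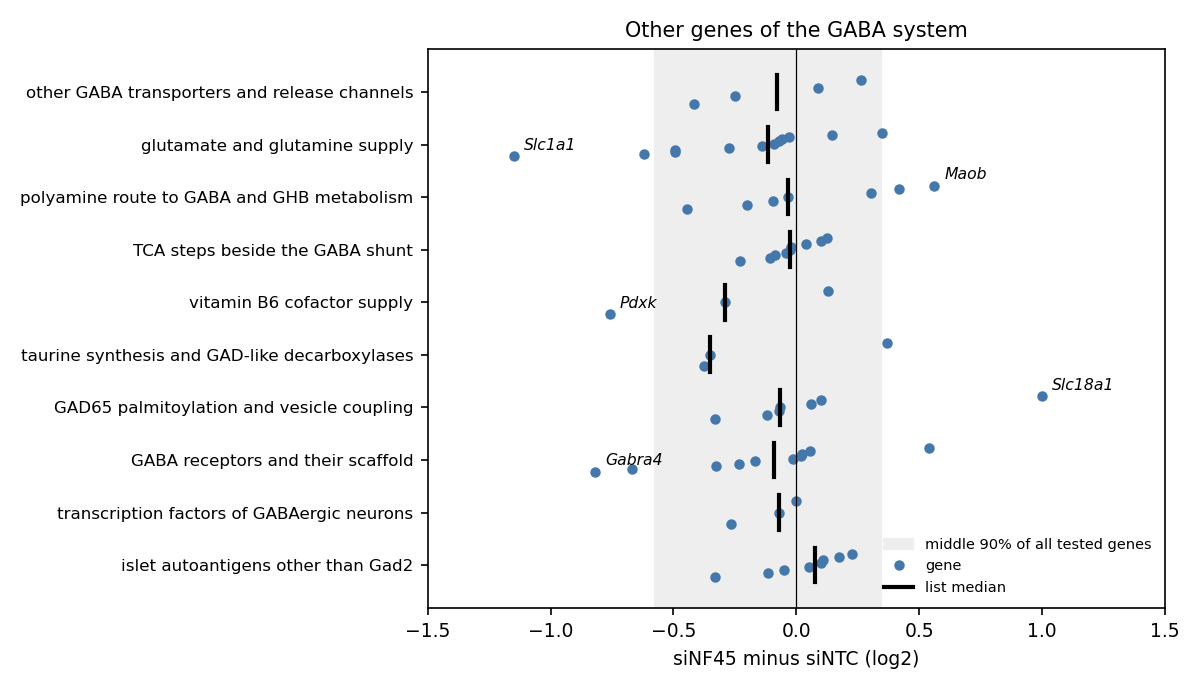
Differences siNF45 minus siNTC (log2, horizontal axis) of the 66 tested genes of the wider GABA system by list (rows), 1 point per gene, with a black bar for the list median and grey for the middle 90% of all tested genes. Medians lie between -0.35 and 0.075, and Slc1a1 at -1.15 and Slc18a1 at 1.00 stand furthest out.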

How the data were processed

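The authors made the deposited log2 values, 1 for each probe set on each array, with Transcriptome Analysis Console, per the submitters' processing notes. For its version, the summarisation and the background correction the sources used here give nothing. The log base was not stated, and log2 was taken from the range of values (0.12 to 12.21). Array medians were 1.64 to 1.66 over all probe sets, but over the tested genes they were lower on both siNF45 arrays. Genes are not centred, and direction comes from the sample labels.

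The platform annotation named 1 gene for 23521 of the 41345 probe sets, several for 1814 and none here for 16010, and only the first were used. The brightest probe set per gene was kept, and genes with a mean of at least 1.65 were tested with limma 3.58.1 in R 4.3.3 (lmFit, eBayes, Benjamini-Hochberg over 11742 genes, threshold 0.05, residual degrees of freedom 2, prior 3.69). The fit was tested on simulated data, in 20 runs with 200 changed genes each. It recovered 59.3% of changes of 1 log2 unit and 96.9% of changes of 2, and 4.81% of its calls were false. The simulated spread came from the fit's own estimate, independently for each gene, so these shares check the procedure and need not hold for the real data. There a difference as large as that of Slc1a1, at -1.15, was not called. A count of 0 calls in a list therefore does not show that its genes were unchanged. Errors are SDs over 2 arrays or moderated SEs, and precision is limited by the number of arrays.

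The members and lists were chosen with earlier results of these data known. Named were all members, Ilf2, the 3 genes with the smallest p in each list, the 5 nearest to Gad2 in pattern and the nearest RefSeq neighbours, and a few others marked where they stand. Promoters came from RefSeq. Alternatives were other filters, scalings and spread estimates, the replicate block, averaged probe sets and each array left out.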

Additional observations from a re-analysis of the deposited data

How the results depend on the processing

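Gad2, Aldh5a1 and Slc6a6 kept their sign in the 6 alternatives that changed their values (quantile normalization, centring and each array left out), with ranges of -1.65 to -1.47, -0.63 to -0.435 and 0.235 to 0.575. Gad1, Abat, Slc32a1 and Slc6a13 did not. Centring the arrays added 0.13 to every difference and moved the median of all genes from -0.065 to 0.065. The genes called over all tested genes, 10 as deposited (1 higher, 9 lower), numbered 87 at the 70th percentile filter (17 and 70), 62 after quantile normalization (18 and 44), 172 after centring (71 and 101) and 174 when eBayes fitted a trend (40 and 134). Under the replicate block 0 genes were called and Ilf2 was at -2.17 with a limma adjusted p of 0.258, while 1909 genes had an unadjusted p under 0.05. Whether the replicate numbers pair the samples is not known, and their deviations correlated at 0.0062 over genes. Without 1 array 0 to 0 genes were called by limma, with 1236 to 1670 at an unadjusted p under 0.05 and Ilf2 between -2.26 and -2.07 (limma adjusted p 0.307 to 0.471), and the lone array of a group is then assumed to vary like the other group. Genes of the pathway lists that were called numbered 0 as deposited, 1 after centring and 3 with a trend. Their median ran from -0.085 to 0.0675. The cause of these shifts was not tested. Low signal limits Gad1, Slc32a1 and Slc6a13, which lay below the filter on all arrays.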
